A study of Mus musculus with 8 samples.

Results

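Hira depletion was compared directly with Ubn1 depletion in mouse ESCs, over 4 of the 8 RNA-seq libraries of the series. These were the 2 libraries labelled Hira_KD and the 2 labelled Ubn1_KD, chosen by their labels alone, and the counts of both tables were joined by gene symbol. All cells were E14 ESCs, a mouse line grown here without feeders kept on gelatin in serum with LIF. They were transfected with a pSuper-puro plasmid expressing an shRNA against Hira or against Ubn1 and selected with puromycin for 3 days before RNA was extracted. Each depletion was thus a transient and partial loss of mRNA rather than a knockout. The sources differ on the control cells, which the labels call wild type, while the study describes a control shRNA against luciferase. The 2 control libraries stand beside the values below as the background level but took no part in the test. Whether the 2 libraries of a group came from separate cultures is not stated, so p-values measure the spread between these libraries, which may be technical. The test estimates that spread partly from other genes, with a median of 27.0 total degrees of freedom per gene.

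HIRA is a histone chaperone complex that places the histone variant H3.3 into chromatin outside DNA replication. Its scaffold is the Hira protein. Ubn1 is the subunit that holds H3.3, a place that its paralogue Ubn2 can also fill, while Cabin1 is a further subunit and Asf1a hands over the H3.3-H4 dimer. Loss of Hira thus removes the centre of the complex, whereas loss of Ubn1 removes one of a pair of alternative H3.3-binding subunits. The comparison asks where the ESC transcriptomes under these losses differ.

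The 4 libraries held between 20380337 and 31175762 counts on 55418 genes, of which 23757 had no count in any of the 4. Levels are given as CPM, the counts scaled to a common library size, and 3 counts, taken as the floor for counting error, equalled 0.0962 to 0.147 CPM. Across genes, which are not independent replicates, the correlation of log2 CPM was 0.994 for the Hira pair, 0.993 for the Ubn1 pair and 0.982 to 0.983 for a Hira with a Ubn1 library. All 4 libraries carried the ESC markers that had been listed, with Pou5f1 at 961 to 1102 CPM and Nanog at 484 to 610 CPM. Among defining markers of other cells, the fibroblast gene Postn was at 0 in every library, and the blood genes Hbb-bs and Ptprc reached at most 0.0466 and 0.145 CPM. Other markers on these lists were detected in all 4 libraries, such as the fibroblast genes Col1a1 at 4.79 to 10.3 CPM and Thy1 at 11.7 to 21.8 CPM, and the endothelial gene Pecam1, which ESCs also express, at 78.7 to 103 CPM. In bulk RNA, fewer cells of a type and less RNA per cell cannot be told apart.

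The targeted genes separated the groups as labelled. Hira (ENSMUSG00000022702.16, GRCm38 chr16:18877037-18970309, + strand) was at 10.2 and 10.6 CPM in the Hira libraries, at 107 and 119 CPM in the Ubn1 libraries and at 91.7 and 99.8 CPM in the control libraries. Ubn1 (ENSMUSG00000039473.8, chr16:5050057-5086289, + strand) was at 24.3 and 24.0 CPM in the Ubn1 libraries, at 70.2 and 68.4 CPM in the Hira libraries and at 54.4 and 45.1 CPM in the control libraries. Ubn1 mRNA in the Hira libraries thus lay above both control libraries, so the difference in Ubn1 is wider than its distance from control. The depletions were unequal in depth. Mean Hira mRNA in the Hira libraries was 10.4 CPM, against 95.8 CPM in control cells. Mean Ubn1 mRNA in the Ubn1 libraries was 24.1 CPM, against 49.7 CPM in control cells. Depth of depletion and choice of subunit cannot be told apart here, and how depth bears on the differences below was not tested. On the log2 scale, Hira minus Ubn1 depletion was -3.44 ± 0.12 (SE) for Hira and 1.52 ± 0.11 for Ubn1, with adjusted p = 8.02e-18 and 8.88e-11 in the quasi-likelihood test of edgeR, adjusted by Benjamini-Hochberg. The readthrough gene Gm28539, which overlaps Hira on the same strand, differed by -2.96 ± 0.11, and its reads cannot be told apart from those of Hira here. None of the other 6 genes of the HIRA list passed the test. Ubn2, the paralogue of Ubn1, was at 60.9 and 64.6 CPM after Hira and at 58.1 and 51.5 CPM after Ubn1 depletion, a log2 difference of 0.20. Cabin1 differed by -0.19, Asf1a by 0.19 and its paralogue Asf1b by -0.19. The H3.3 genes H3f3a and H3f3b differed by 0.26 and 0.12, the first with an adjusted p of 0.0638. Of 18 other histone chaperone genes, none was called in either direction, against 12.7% of all genes tested. Their median log2 difference was -0.18, and 12 of the 18 lay below 0. With adjusted p alone, and no fold threshold, 5 were higher after Ubn1 depletion and none after Hira depletion. On that criterion, 1917 of all 18819 genes tested were higher after Ubn1 depletion.

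The transcriptomes differed mostly through genes that were higher after Hira depletion. Of 18819 genes tested, 1791 were higher after Hira depletion, a background share of 9.52%, and 595 were higher after Ubn1 depletion, a share of 3.16%. Calls required both an adjusted p under 0.05 and a difference over 1.5-fold. The asymmetry widened with the size of the difference, since 1061 against 153 called genes differed by over 2-fold and 240 against 17 by over 4-fold. The median log2 difference over all genes tested was 0.02 with 52.1% of genes above 0, on a TMM scaling that centres the libraries. The libraries of the groups did not overlap in 1787 of the 1791 and in 593 of the 595 called genes, against 61.4% of all genes tested, and with 2 against 2 libraries an exact permutation test of one gene cannot go below p = 0.333. DESeq2's Wald test called 1073 and 525 genes in the same directions, and 59.9% of the genes called higher after Hira and 78.8% of those called higher after Ubn1 were shared with it.

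**Figure D1:**
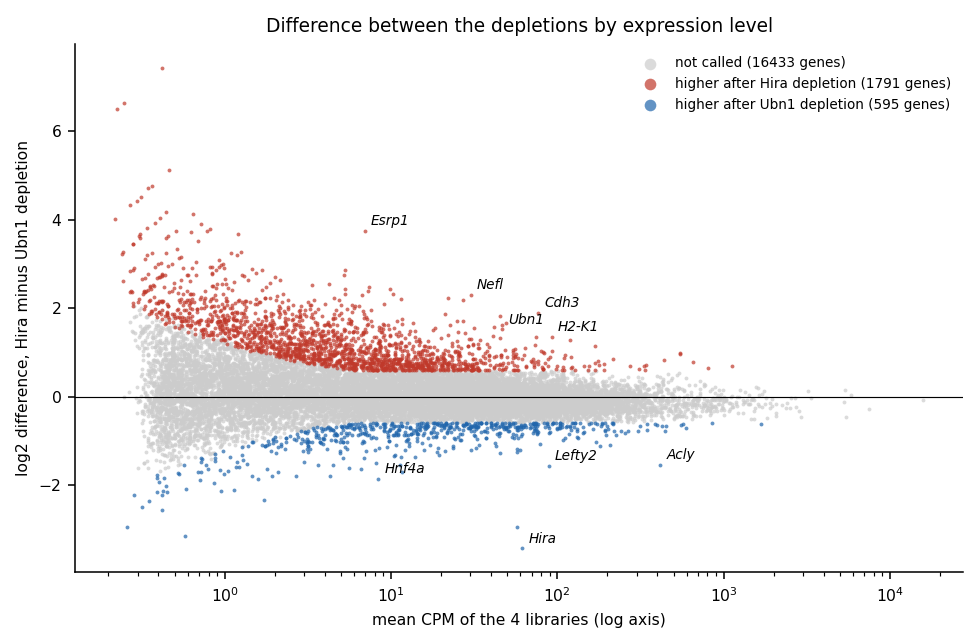
Fitted log2 difference of Hira minus Ubn1 depletion (y axis) against mean CPM over the 4 libraries (x axis, log) for 18819 genes, one point a gene, with called genes coloured. The 1791 genes higher after Hira depletion lie mostly at low to middle CPM and reach farther from 0 than the 595 genes higher after Ubn1 depletion.

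The genes higher after Hira depletion had lower levels than the typical gene tested, whose median was 14.2 CPM in the Hira libraries, 13.6 CPM in the Ubn1 libraries and 13.8 CPM in the control libraries. They had a median of 5.83 CPM in the Hira libraries, 2.57 CPM in the Ubn1 libraries and 3.07 CPM in the control libraries. Genes higher after Ubn1 depletion had a median of 11.3 CPM in the Hira libraries, 19.8 CPM in the Ubn1 libraries and 19.5 CPM in the control libraries. The share averaging under 1 CPM over the 4 libraries was 16.4% of the first, 5.88% of the second and 14.2% of all genes tested. The median size of the difference was 1.14 and 0.77 on the log2 scale, against 0.27 over all genes tested. By biotype, 10.4% of 14658 protein-coding genes, 7.08% of 2318 long noncoding RNA genes and 5.84% of 908 pseudogenes were higher after Hira depletion. The shares higher after Ubn1 depletion were 3.22%, 3.41% and 2.09% in the same order.

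For most called genes the control level lay closer to the Ubn1 libraries than to the Hira libraries. Among genes higher after Hira depletion, the control mean lay nearer the Ubn1 mean in 1482 (82.7%) and nearer the Hira mean in 309. Among genes higher after Ubn1 depletion, it lay nearer the Ubn1 mean in 501 (84.2%) and nearer the Hira mean in 94. The control mean fell between the depletions in 1128 of the first and 362 of the second. It fell past the Ubn1 mean, so that both depletions lay on the same side of control, in 615 and 215. Genes whose means lay over 1.5-fold from control in opposite directions after the depletions numbered 53 and 7. These places are given without a test, on log2(CPM + 0.5), and take no account of the unequal depth of the depletions. They were worked out for called genes only, so no share over all genes tested stands beside them.

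**Figure D2:**
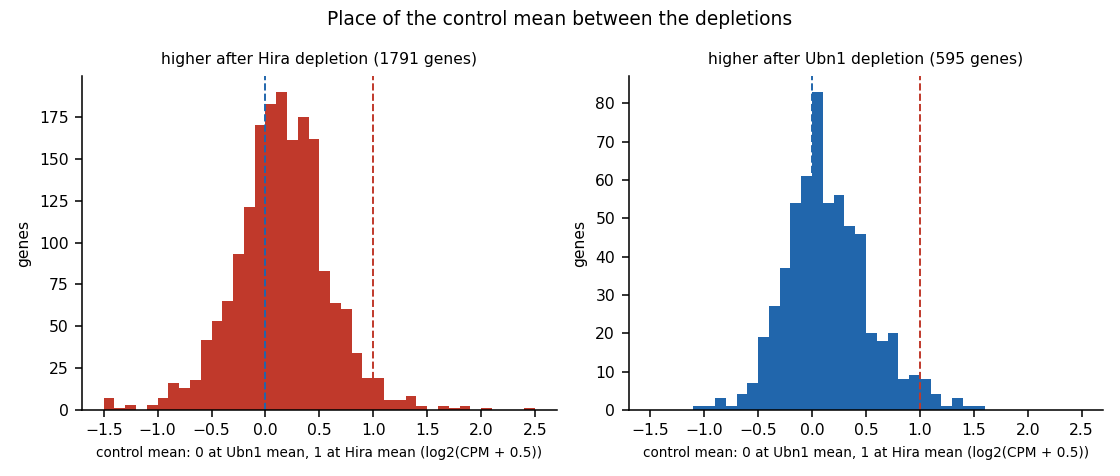
Place of the control mean on the scale from the Ubn1 mean (0) to the Hira mean (1), in log2(CPM + 0.5), for genes higher after Hira depletion (left) and after Ubn1 depletion (right), with genes beyond the axis drawn in the outermost bins. In both panels most genes lie near 0, and the control mean was nearer the Ubn1 mean in 82.7% and 84.2% of them.

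The largest differences among genes that averaged at least 5 CPM and whose libraries did not overlap began with Esrp1, Cpz and Atf3. Esrp1, a splicing regulator of epithelial cells, was at 14.6 and 11.3 CPM after Hira depletion, at 0.931 and 1.01 CPM after Ubn1 depletion and at 2.25 and 2.48 CPM in control cells. Its log2 difference was 3.74 ± 0.25 (SE, adjusted p = 4.37e-11, edgeR). The Ubn1 libraries lay below control and the Hira libraries far above it. Cdh3, which encodes the adhesion molecule P-cadherin, had the smallest adjusted p of the genes higher after Hira depletion, with 119 and 123 CPM against 31.0 and 34.0 CPM and 41.6 and 44.9 CPM in control cells. It differed by 1.89 ± 0.10 (adjusted p = 6.34e-13, edgeR). Nefl, which encodes the light neurofilament chain of axons, was at 52.4 and 48.8 CPM after Hira depletion and at 9.31 and 11.1 CPM after Ubn1 depletion, a log2 difference of 2.30 ± 0.13. Its partner Nefm, the medium chain, differed by 2.22 ± 0.14. Control cells had 12.6 and 14.2 CPM of Nefl, close to the Ubn1 libraries. Other genes at the top were Cpz (2.86), the stress-induced transcription factor Atf3 (2.75), Cd109 (2.48), the placental homeobox gene Esx1 (2.44), the glutathione peroxidase Gpx2 (2.43), the N-acetylaspartate synthase Nat8l (2.32), Plet1 (2.32), a marker of placental progenitors, and the testis TFIID subunit Taf7l (2.30), all as log2 differences. Grb10, an imprinted adaptor that restrains growth factor signalling, differed by 2.19 ± 0.14, with 49.6 and 39.1 CPM against 9.59 and 9.94 CPM.

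At the other end, Hira itself and the overlapping Gm28539 were followed by Hnf4a, and Lefty2 had the smallest adjusted p of the remaining genes. Lefty2, a secreted inhibitor of Nodal, was at 132 and 134 CPM after Ubn1 depletion, at 48.4 and 40.7 CPM after Hira depletion and at 66.9 and 53.1 CPM in control cells. Here the Ubn1 libraries were the ones away from control, at a log2 difference of -1.58 ± 0.10 (adjusted p = 3.06e-11, edgeR). Acly, the ATP citrate lyase that supplies cytosolic acetyl-CoA, was at 207 and 221 CPM after Hira depletion against 597 and 643 CPM after Ubn1 depletion and 592 and 596 CPM in control cells. It differed by -1.54 ± 0.11 (adjusted p = 5.51e-11, edgeR), and the Hira libraries alone stood apart. Hnf4a, a transcription factor of visceral endoderm and liver, was at 3.83 and 3.43 CPM against 11.9 and 14.5 CPM, with control between at 8.39 and 9.58 CPM. Fan1, a nuclease of crosslink repair, differed by -1.54, Krt17, a keratin, by -1.51, and Hydin, a protein of motile cilia, by -1.37. The remaining genes of the lowest 12 were Ankrd45 (-1.72), Slc4a5 (-1.63), Lrp8os2 (-1.61), Ubxn10 (-1.40) and Trappc2 (-1.39). Ankrd45 differed through the Ubn1 libraries, at 21 and 14.7 CPM against 6.29 and 5.50 CPM in control cells. Prelid3b, with one of the 5 smallest adjusted p in this direction, was at 36.4 and 35.4 CPM against 80.6 and 85.5 CPM.

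**Figure D3:**
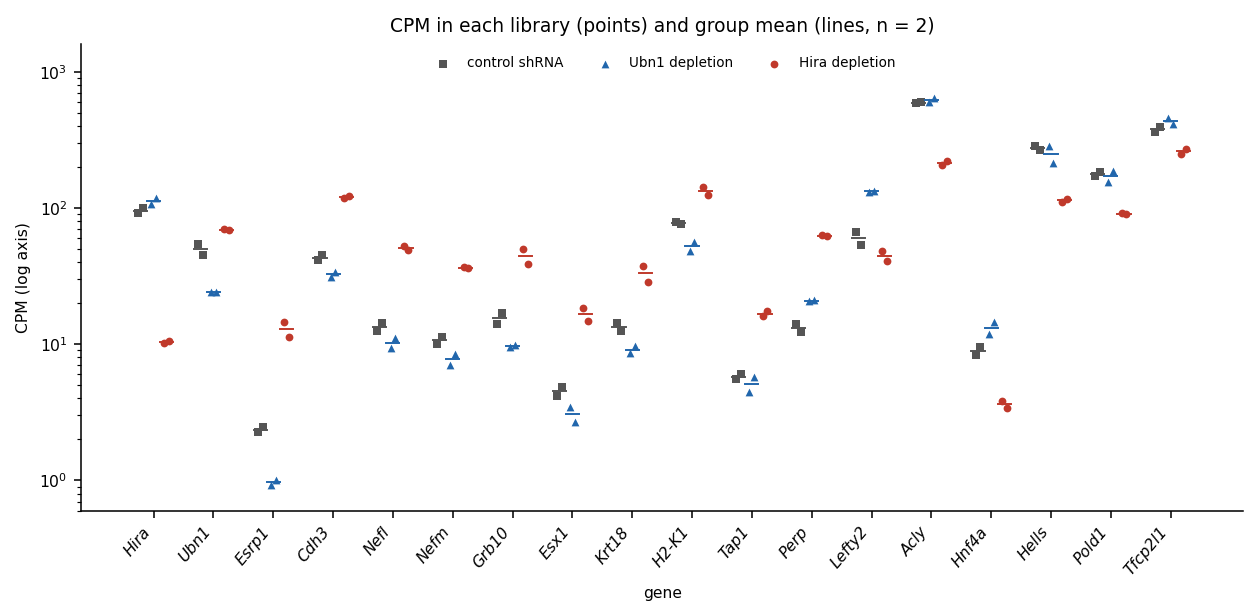
CPM (y axis, log) in each library for 18 genes named in the text, with control, Ubn1 and Hira libraries as separate symbols and group means (n = 2) as lines. For most genes the control and Ubn1 libraries lie together and the Hira libraries apart, whereas for Lefty2 the Ubn1 libraries at 132 and 134 CPM stand above the other groups.

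Trophoblast genes had a larger share of called members than any other list with at least 10 tested genes. Trophoblast is the embryo's first outer lineage. Of 20 tested trophoblast genes, 12 (60%) were higher after Hira depletion and none after Ubn1 depletion, against 9.52% and 3.16% of all genes tested. The median log2 difference of the list was 1.03. Krt18 and Krt8, the paired keratins of simple epithelia, were at 37.8 and 28.6 CPM and at 57.7 and 49.2 CPM after Hira depletion, against 8.57 and 9.63 CPM and 23.1 and 26.0 CPM after Ubn1 depletion. They differed by 1.87 ± 0.15 and 1.12 ± 0.12. Esx1 was at 18.4 and 14.7 CPM against 3.49 and 2.67 CPM, and Cdkn1c, an imprinted cell cycle inhibitor of placenta, at 28.0 and 24.8 CPM against 8.52 and 10.0 CPM. Hand1, a factor of giant cells, differed by 2.23 ± 0.51 at only 1.36 and 1.45 CPM against 0.279 and 0.309 CPM. Cdx2, the factor that sets trophectoderm fate, was at 1.14 and 0.773 CPM against 0.419 and 0.116 CPM (1.90 ± 0.59, adjusted p = 0.0192, edgeR), and its call was lost without Hira replicate 1 (1.56), without Ubn1 replicate 2 (1.21) and with DESeq2 (1.85). The defining factors Elf5 and Gata3 had too few counts to be tested, at most 0.525 CPM in any of the 4 libraries, and Tfap2c (0.05), Fgfr2 (-0.11) and Eomes (0.30), a factor of trophoblast stem cells, did not pass the test. Summed over the list, CPM were 765 and 936 in the Hira libraries, against 648 and 619 in the Ubn1 libraries and 660 and 690 in the control libraries. The count of 12 became 8 without Hira replicate 1 and 9 without Ubn1 replicate 2.

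A part of the interferon and antigen presentation genes was higher after Hira depletion. MHC class I molecules carry peptides that the immunoproteasome cuts and the Tap transporter delivers, and Nlrc5 is the transcriptional activator of this set. Of 39 tested interferon response and antigen presentation genes, 14 (35.9%) were higher after Hira depletion, against 9.52% of all genes tested. Ifitm1 (-0.77, or -0.56 and not called without Ubn1 replicate 2) was the 1 gene (2.56%) higher after Ubn1 depletion, against 3.16%. The median of the list was 0.52. H2-K1 was at 143 and 124 CPM after Hira depletion, at 48.7 and 56.2 CPM after Ubn1 depletion and at 78.5 and 75.8 CPM in control cells, a log2 difference of 1.35 ± 0.11 (adjusted p = 6.83e-10, edgeR). H2-D1 was at 120 and 94.4 CPM against 48.1 and 56.6 CPM, a difference of 1.03 ± 0.11. Class I genes are near-identical copies, so how their shared reads were split is uncertain. Tap1 and Tap2, which together form the peptide transporter, were at 16 and 17.5 CPM against 4.47 and 5.72 CPM and at 9.21 and 7.44 CPM against 2.51 and 2.75 CPM. Nlrc5 differed by 1.16 and the immunoproteasome subunit Psmb9 by 1.11. The class I light chain B2m (0.39) was not called. Gbp2, another called member, was near the floor, at 26 and 21 counts after Hira depletion and 0 and 1 counts after Ubn1 depletion. The summed CPM of the list, 1065 and 1054 against 918 and 1085, overlapped between the groups. DESeq2 called 7 of the list in place of 14, and without single libraries the count was 10 to 13.

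The promoters of H2-K1 and H2-D1 are shown because both genes were higher after Hira depletion and share the kappa-B type letters GGGATTCCC of the class I enhancer, in capitals. Both windows run 5′ to 3′ from 250 bases before the RefSeq start site to 50 after it on GRCm38.p6. They are chr17:34000298-34000597 on the - strand for H2-K1, the outermost of its 2 listed starts, and chr17:35262844-35263143 on the + strand for H2-D1.
H2-K1: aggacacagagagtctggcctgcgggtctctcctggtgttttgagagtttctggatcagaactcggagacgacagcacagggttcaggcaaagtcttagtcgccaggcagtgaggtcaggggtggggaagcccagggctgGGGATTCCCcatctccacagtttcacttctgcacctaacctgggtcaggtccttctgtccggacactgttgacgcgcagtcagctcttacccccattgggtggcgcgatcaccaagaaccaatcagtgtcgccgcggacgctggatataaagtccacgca
H2-D1: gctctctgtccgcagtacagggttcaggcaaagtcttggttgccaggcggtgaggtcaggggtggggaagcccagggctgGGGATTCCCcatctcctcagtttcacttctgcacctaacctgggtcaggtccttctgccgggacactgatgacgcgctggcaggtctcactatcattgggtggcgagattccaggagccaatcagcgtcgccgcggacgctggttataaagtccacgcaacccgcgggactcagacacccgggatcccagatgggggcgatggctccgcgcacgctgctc
The letters start 110 bases before the start site in H2-K1 and 170 bases before it in H2-D1. Searched on both strands, they were found in 0.353% of 32851 RefSeq promoters. Counted by gene, with a match in any of its listed promoters, they were found for 3 of 38 genes of this list. The shares were 1.09% of 1191 genes called higher after Hira depletion and 0.506% of 12248 genes tested that had a listed promoter. A match is a description of the sequence and not a bound site.

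The DNA replication genes that passed the test were all lower after Hira than after Ubn1 depletion. The list holds the Mcm helicase, the origin recognition complex, the replicative polymerases and the enzymes of nucleotide supply. Of 45 tested genes, 11 (24.4%) were higher after Ubn1 depletion and none after Hira depletion, against 3.16% and 9.52% of all genes tested. Of the 45, 43 lay below 0, with a median log2 difference of -0.45 against 0.02 over all genes. Pold1, the catalytic subunit of polymerase delta, was at 91.2 and 90.3 CPM after Hira depletion, at 155 and 188 CPM after Ubn1 depletion and at 171 and 185 CPM in control cells (-0.92 ± 0.10, adjusted p = 3.75e-07, edgeR). Cdc6, which loads the helicase at origins, was at 50.5 and 53.1 CPM against 88.5 and 80.3 CPM and 98.1 and 91.1 CPM in control cells. Mcm6, a helicase subunit, was at 243 and 241 CPM against 384 and 388 CPM, and Pola2, a polymerase alpha subunit, at 62.2 and 67.3 CPM against 104 and 106 CPM. For all 4 genes the Hira libraries lay below both other groups. Mcm2 (-0.64), Mcm5 (-0.60), Pcna (-0.64), Pole (-0.63), Pole2 (-0.70), Orc3 (-0.62) and Tk1 (-0.67) made up the rest of the 11. Their differences lay close to the 1.5-fold threshold, and the count was 7 without Hira replicate 1, 15 without Hira replicate 2 and 1 with a test against 1.5-fold itself.

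Hells, a chromatin remodeller needed for DNA methylation, showed the same direction at 111 and 117 CPM against 285 and 212 CPM, with 285 and 264 CPM in control cells (-1.12 ± 0.11, adjusted p = 7.21e-08, edgeR). Among 28 tested retrotransposon silencing factors, it was joined by Uhrf1 (-0.67), Trim28 (-0.63) and Dnmt3l (-0.60), while 1, the H3K9 methyltransferase Suv39h2 (0.61), was higher after Hira depletion. The shares higher after Ubn1 and after Hira depletion were 14.3% and 3.57%, against 3.16% and 9.52% of all genes tested. The calls of Uhrf1, Trim28 and Dnmt3l were lost without Hira replicate 1 (-0.58, -0.51 and -0.43) and without Ubn1 replicate 2 (-0.58, -0.56 and -0.56), and the list's count of 4 was 1 and 2 there, the 2 including Fam208a, which was not among the 4. The call of Suv39h2 was lost without Hira replicate 2 (0.56), without Ubn1 replicate 2 (0.41) and with DESeq2 (0.58). Among 77 DNA repair and telomere genes, 6 (7.79%) were higher after Ubn1 depletion, against 3.16% of all genes tested. None was higher after Hira depletion, and the median was -0.23. The 6 included Parp2 (-0.87), which senses strand breaks, and the damage kinases Prkdc (-0.89), Atm (-0.75) and Chek2 (-0.67). That count was 9 without Ubn1 replicate 1 and 10 without Ubn1 replicate 2.

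Promoters of Cdc6, Pold1 and Hells are shown because these genes were lower after Hira depletion and hold the E2F type letters TTTCCCGC, which read GCGGGAAA on the other strand, in capitals. E2F factors are known to drive S phase genes. The windows are built as above, at chr11:98907901-98908200 on the + strand for Cdc6, chr7:44548766-44549065 on the - strand for Pold1 and chr19:38930740-38931039 on the + strand for Hells.
Cdc6: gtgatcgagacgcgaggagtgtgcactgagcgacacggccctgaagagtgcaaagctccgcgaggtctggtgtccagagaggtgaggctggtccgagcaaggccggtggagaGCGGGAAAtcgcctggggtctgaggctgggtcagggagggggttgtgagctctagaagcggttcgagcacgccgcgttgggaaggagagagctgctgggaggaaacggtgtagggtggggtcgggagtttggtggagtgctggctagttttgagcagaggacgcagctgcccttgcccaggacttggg
Pold1: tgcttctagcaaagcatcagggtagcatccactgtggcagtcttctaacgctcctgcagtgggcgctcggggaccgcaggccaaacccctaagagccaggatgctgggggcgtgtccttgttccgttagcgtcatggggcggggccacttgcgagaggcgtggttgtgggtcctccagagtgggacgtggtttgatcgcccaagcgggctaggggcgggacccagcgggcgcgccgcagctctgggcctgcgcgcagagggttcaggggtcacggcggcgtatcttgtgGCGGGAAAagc
Hells: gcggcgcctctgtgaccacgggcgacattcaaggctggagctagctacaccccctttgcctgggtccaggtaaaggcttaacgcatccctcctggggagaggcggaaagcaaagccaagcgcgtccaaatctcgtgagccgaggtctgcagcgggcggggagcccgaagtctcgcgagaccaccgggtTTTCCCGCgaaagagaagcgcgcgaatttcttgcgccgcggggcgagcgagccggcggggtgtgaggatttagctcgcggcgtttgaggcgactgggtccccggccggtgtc
Counted by gene as above, these letters were found for 8 of 37 DNA replication genes (21.6%) and 4.96% of 403 genes called higher after Ubn1 depletion. They were found for 1.18% of 1191 genes called higher after Hira depletion and 2.25% of 12248 genes tested. Counted by promoter, they were in 1.07% of all 32851. Neither set of letters contains the other.

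Core pluripotency genes differed by less than the 1.5-fold threshold, and a few naive factors were lower after Hira depletion. Sox2 was at 425 and 455 CPM after Hira depletion and at 414 and 398 CPM after Ubn1 depletion, and its log2 difference was 0.12 with a 95% interval from -0.09 to 0.33. The interval ran from -0.31 to 0.14 for Pou5f1 and from -0.03 to 0.41 for Nanog. Of 34 tested pluripotency genes, the 95% interval lay inside 1.5-fold either way for 22 (64.7%), against 44.1% of all genes tested. These shares were not matched for expression level, on which the width of an interval depends. Tfcp2l1, a factor of naive self-renewal, was at 250 and 270 CPM against 456 and 415 CPM, with 359 and 394 CPM in control cells (-0.75 ± 0.10, adjusted p = 6.79e-06, edgeR). Nr5a2, a nuclear receptor that can activate Pou5f1, was at 39.1 and 37.7 CPM against 66.9 and 57.1 CPM. Zfp57 (-0.66), which keeps imprints methylated, and Tcl1 (-0.64) completed the 4 genes higher after Ubn1 depletion. Mycn (0.59) was the 1 gene higher after Hira depletion. These shares of the list were 11.8% and 2.94%, against 3.16% and 9.52% of all genes tested. Mycn lay at the threshold, and its call was lost without Hira replicate 2 (0.48), without Ubn1 replicate 1 (0.56) and without Ubn1 replicate 2 (0.58), and with DESeq2 (0.56). The call of Zfp57 was lost without Hira replicate 1 (-0.54) and without Ubn1 replicate 1 (-0.58), and that of Tcl1 without Hira replicate 2 (-0.56) and without Ubn1 replicate 2 (-0.56).

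**Figure D4:**
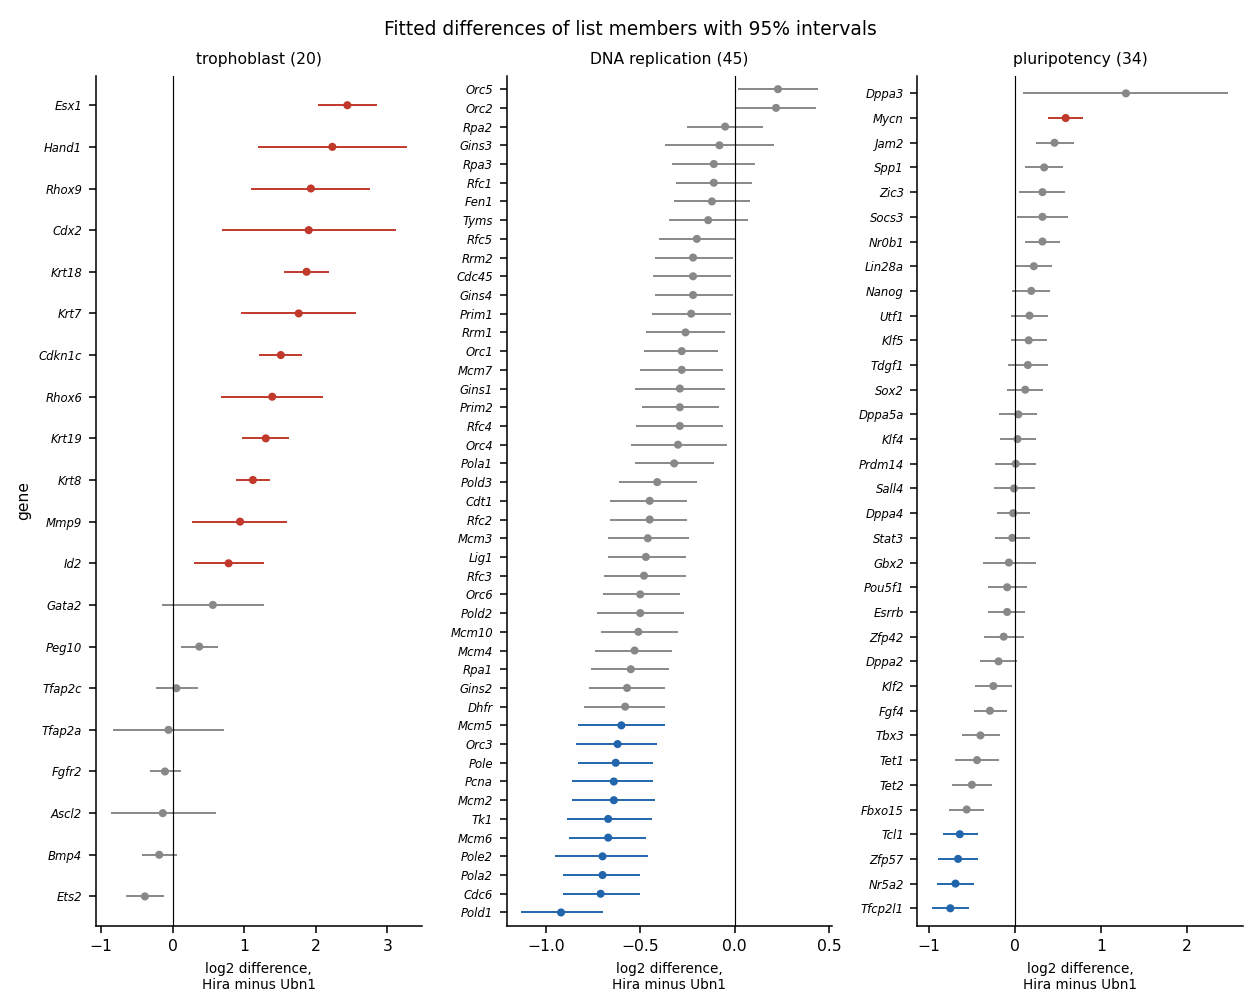
Fitted log2 differences (Hira minus Ubn1 depletion, x axis) with 95% intervals for tested trophoblast, DNA replication and pluripotency genes, coloured red or blue where called higher after Hira or Ubn1 depletion and grey where not called. The x axes differ between panels, and 43 of the 45 DNA replication genes lie below 0.

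Some neuronal, axon guidance and potassium channel genes were higher after Hira depletion. Of 41 tested neuronal and neural progenitor genes, 14 (34.1%) were higher after Hira and 2 (4.88%) after Ubn1 depletion, with a median of 0.48. Over all genes tested, these shares were 9.52% and 3.16%. Besides Nefl and Nefm, Nefh, the heavy neurofilament chain, was at 59.4 and 69.9 CPM against 27.9 and 23.6 CPM, and Nes, the intermediate filament nestin of neural progenitors, at 43.3 and 43.0 CPM against 19 and 16.1 CPM. Control cells had 22.7 and 27.2 CPM of Nefh, level with the Ubn1 libraries. The neural fate genes Sox1 (-0.35), Pax6 (0.48) and Tubb3 (0.26) did not pass the test. Ncam1 (-0.66) and Elavl4 (-1.66), an RNA-binding protein of neurons, were the 2 in the other direction, and neither was called without Hira replicate 1 (-0.49 and -1.27) or without Ubn1 replicate 1 (-0.58 and -1.45). Of 59 axon guidance genes, 14 (23.7%) were higher after Hira depletion and 3 (5.08%) after Ubn1 depletion, with a median of 0.16. The 3 became 5 without Hira replicate 2 and 1 without Ubn1 replicate 2. The receptor Nrp2 was at 40.3 and 41.3 CPM against 14.3 and 15.7 CPM, and the ligand Ntn1 at 167 and 189 CPM against 112 and 109 CPM. Of 55 potassium channel genes, 17 (30.9%) were higher after Hira depletion and none after Ubn1 depletion, with a median of 0.47. Kcnk6, a leak channel, was the clearest at 17.0 and 16.4 CPM against 6.70 and 6.03 CPM, while 12 of the 17 were below 5 CPM in each library. The count of 17 was 9 without Hira replicate 1, 11 without Hira replicate 2 and 9 without Ubn1 replicate 1.

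Some adhesion and matrix genes, of both epithelial and mesenchymal kind, were higher after Hira depletion. Of 32 genes listed for the epithelial to mesenchymal transition, 13 (40.6%) were higher after Hira depletion and 1 (3.12%) after Ubn1 depletion. Among all genes tested, these shares were 9.52% and 3.16%. The median of the list was 0.38. The 13 included the epithelial genes Esrp1, Epcam (0.98), Cldn6 (1.45) and Cdh1 (0.62), and also the mesenchymal genes Cdh2 (1.47), Vim (0.59) and Twist1 (1.22). Epcam was at 115 and 105 CPM against 54.5 and 57.6 CPM and 72.4 and 67.3 CPM in control cells. Tgfbi, a secreted matrix protein, was the 1 gene in the other direction at 12 and 11.7 CPM against 25.5 and 27.6 CPM. The calls of Cdh1, E-cadherin, and Vim were lost without Hira replicate 2 (0.53 and 0.54) and without Ubn1 replicate 1 (0.55 and 0.46). Of 42 collagen and laminin genes, 13 (31%) were higher after Hira depletion and 1 (2.38%) after Ubn1 depletion, with a median of 0.36. The summed CPM of that list, 1554 and 1708 against 1610 and 1713, overlapped between the groups. Col27a1, a fibrillar collagen, was at 11.7 and 10.2 CPM against 3.63 and 2.79 CPM. Of 9 tested fibroblast markers, 5 (55.6%) were higher after Hira depletion and 1 (11.1%) after Ubn1 depletion. Col1a1 was among the 5, at 10.3 CPM in both Hira libraries against 4.79 and 5.92 CPM, and the 1 was the receptor Pdgfrb, with a log2 difference of -0.94. The summed CPM of the fibroblast markers was 112 and 100 against 76.5 and 91.4. Postn stood at 0 throughout and the remaining part of such cells in these results was not tested.

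Outside the clustered protocadherins, the median of 26 cadherin genes was 0.40. Of these, 8 (30.8%) were higher after Hira depletion and none after Ubn1 depletion, against 9.52% and 3.16% of all genes tested. That count was 5 without Hira replicate 2, without either Ubn1 replicate, and with DESeq2. Cdh2, N-cadherin, was at 9.05 and 8.41 CPM against 3.12 and 3.17 CPM. Of 37 tested clustered protocadherins, which give neurons their surface identity, 13 (35.1%) were higher after Hira depletion, 35 lay above 0, and the median was 0.54. The 13 were all of the alpha cluster, whose variable exons are spliced to shared constant exons, so that its members are not separate measurements if reads on those exons were given to each. Pcdha7 was at 1.92 and 1.84 CPM against 0.698 and 0.309 CPM, with 1.10 and 0.515 CPM in control cells. The protocadherin count was 22 without Hira replicate 1, 7 without Hira replicate 2, 1 without Ubn1 replicate 2 and 2 with DESeq2.

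Developmental transcription factors were called in both directions, and Hox genes in one. Of 39 Hox genes, which pattern the body axis, 16 were tested. Of these, 6 (37.5%), all of the HoxA cluster, were higher after Hira depletion, against 9.52% of all genes tested. All 16 lay above 0 with a median of 1.17, but the filter also admits genes that reach it in a single group. With at least 10 counts in every library, 9 Hox genes were tested, 2 were called and the median was 0.69. Hoxa9 was at 1.54 and 0.870 CPM against 0 and 0.271 CPM, and its call was lost without Hira replicate 1 (2.54). The Hox count was 1 without Hira replicate 1, 3 without either Ubn1 replicate and 2 with DESeq2. Of 47 other homeobox and Pax genes, 10 (21.3%) were higher after Hira depletion, against 9.52% of all genes tested. After Ubn1 depletion 6 (12.8%) were higher, against 3.16%. With DESeq2 the counts were 4 and 6, and with at least 10 counts in every library 5 and 5. En2, a midbrain factor, was at 8.0 and 10.3 CPM against 3.17 and 2.94 CPM, whereas Meis2, a Hox cofactor, was at 1.92 and 1.93 CPM against 7.03 and 6.30 CPM. Control cells had 2.90 and 2.51 CPM of Meis2, closer to the Hira libraries.

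Imprinted genes differed through a small set of members. Of 44 tested imprinted genes, 9 (20.5%) were higher after Hira depletion and 1 (2.27%) after Ubn1 depletion, with a median of 0.08. The shares over all genes tested were 9.52% and 3.16%. Besides Grb10 and Cdkn1c, the noncoding RNA H19 was at 48.6 and 45.1 CPM after Hira depletion, at 14.9 and 17.3 CPM after Ubn1 depletion and at 34.6 and 32.7 CPM in control cells (1.54 ± 0.12, adjusted p = 9.61e-10, edgeR). Control lay between the depletions for H19, as it did for Cdkn1c at 17 and 21 CPM. Nnat, a brain-enriched membrane protein, was at 56.2 and 56.3 CPM against 27.6 and 31.8 CPM. The call counts of this list were 9 or 10 in each fit without one library.

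Some stress genes were higher after Hira than after Ubn1 depletion. Of 27 p53 targets, 8 (29.6%) were higher after Hira depletion and none after Ubn1 depletion, with a median of 0.22. Among all genes tested, these shares were 9.52% and 3.16%. Perp, a desmosomal p53 target, was at 62.9 and 62 CPM after Hira depletion, at 20.7 and 21.1 CPM after Ubn1 depletion and at 14.0 and 12.2 CPM in control cells (1.58 ± 0.11, adjusted p = 7.99e-11, edgeR). Gadd45a, a damage-induced inhibitor, was at 73.0 and 76.9 CPM against 35.0 and 41.7 CPM. The p53 count was 5 without Ubn1 replicate 2. Of 29 ATF4 amino acid stress genes, 7 (24.1%) were higher after Hira depletion, with a median of 0.16. Atf3 was at 9.76 and 8.36 CPM against 1.35 CPM in both Ubn1 libraries, and Atf5 at 131 and 105 CPM against 62.7 and 65.4 CPM. Control cells had 2.05 and 1.93 CPM of Atf3 and 65.7 and 68.7 CPM of Atf5, near the Ubn1 libraries. For Trib3 the Ubn1 libraries, at 20 and 23.3 CPM, lay below control at 36.6 and 35.7 CPM. Its Hira libraries were at 36.7 and 33 CPM. Ddit4 was at 187 and 127 CPM after Hira depletion, 68.8 and 101 CPM after Ubn1 depletion and 140 and 143 CPM in control cells. The ATF4 count was 4 without Hira replicate 1 and 3 without Ubn1 replicate 1, and the median was -0.03 in both. The summed CPM of that list, 3154 and 2957 against 2860 and 3151, overlapped between the groups and lay below the control sums of 3914 and 4076.

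Genes of the 2-cell stage were called in both directions. ESC cultures hold rare cells in a 2-cell-like state marked by the Zscan4 cluster. Of 25 tested genes, 23 lay above 0 with a median of 0.50. Among these 25, 4 (16%) were higher after Hira depletion and 1 (4%) after Ubn1 depletion, against 9.52% and 3.16% of all genes tested. Zscan4d was at 7.48 and 4.98 CPM after Hira depletion, at 3.68 and 4.10 CPM after Ubn1 depletion and at 2.60 and 0.740 CPM in control cells (0.69 ± 0.24, adjusted p = 0.0356, edgeR). Both depletions thus lay above control, and the call between them was lost without Hira replicate 1 (0.35), without Ubn1 replicate 1 (0.59) and with DESeq2 (0.66). Its near-identical copy Zscan4c differed by 0.52 (adjusted p = 0.107, edgeR). The count of 4 was 2 without Hira replicate 1 and without either Ubn1 replicate, and 1 with DESeq2.

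The glycolysis and respiratory chain genes that were called were all lower after Hira than after Ubn1 depletion. Of 24 glycolysis enzymes, 2 (8.33%) were higher after Ubn1 depletion, against 3.16% of all genes tested. None was called higher after Hira depletion, and the median was -0.38. With adjusted p alone, 14 were higher after Ubn1 depletion and 1 after Hira depletion. Hk1, the first enzyme of the pathway, was at 83.5 and 68.8 CPM against 131 and 163 CPM and 136 and 156 CPM in control cells (-0.95 ± 0.11, adjusted p = 7.56e-07, edgeR). The other called enzyme was Pfkm (-0.59), whose call was lost without Ubn1 replicate 2 (-0.50). Of 76 nuclear respiratory chain subunits, 5 (6.58%) were higher after Ubn1 depletion, 67 lay below 0 and the median was -0.20. Ndufa2, a subunit of complex I, was at 36.4 and 37.6 CPM against 59.3 and 79.3 CPM. The glycolysis count was 9 without Ubn1 replicate 1, 3 without Hira replicate 2 and 1 without Ubn1 replicate 2, and the respiratory count was 13 without Ubn1 replicate 1 and 3 without Ubn1 replicate 2. Ribosomal protein genes differed by a median of -0.15 with 1 of 78 called (5 without Ubn1 replicate 1), and none of 12 mitochondrially encoded mRNAs was called. Cholesterol synthesis genes ran the other way, with 4 of 25 (16%) higher after Hira depletion, against 9.52% of all genes tested. None of the 25 was higher after Ubn1 depletion. For Idi1, an isomerase of that pathway, the Ubn1 libraries at 18.1 and 12.7 CPM were the ones away from control at 29.2 and 26.6 CPM, while the Hira libraries were at 28.6 and 30.4 CPM.

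**Figure D5:**
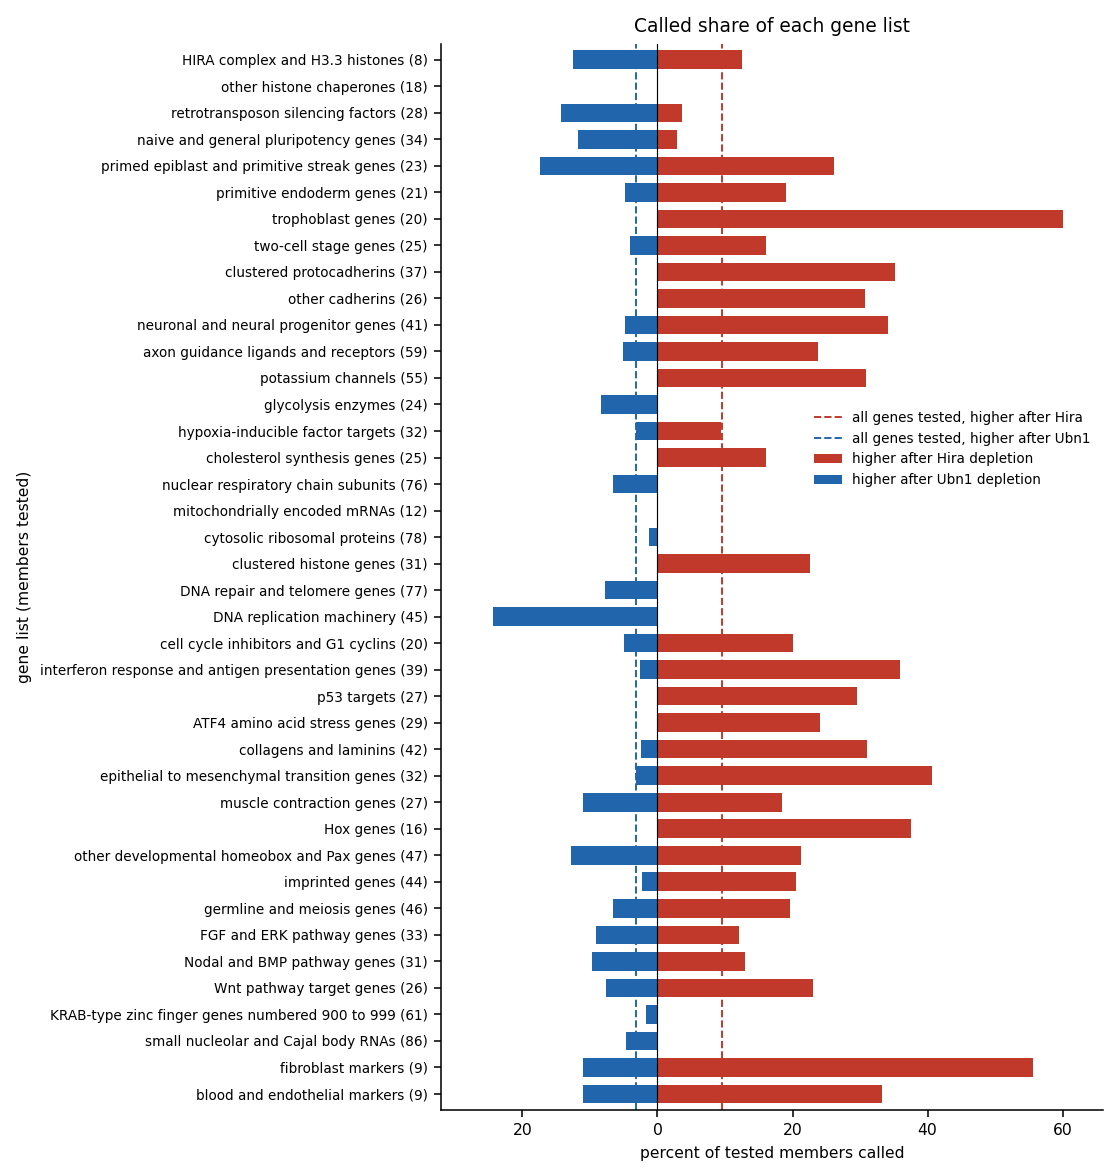
Percent of tested members of each gene list (y axis, number tested in brackets) called higher after Hira depletion (red, to the right) or after Ubn1 depletion (blue, to the left). The dashed lines mark the shares over all genes tested, 9.52% and 3.16%, and trophoblast and DNA replication genes reach farthest past them among lists with at least 10 tested members.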

How the data were processed

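RNA-seq libraries were made with a poly(A) mRNA kit. The authors trimmed reads with Trim Galore, used STAR for alignment to GRCm38 and obtained gene counts from featureCounts, and the deposited values are raw counts per gene symbol. Versions, strand setting and treatment of multiply mapping reads are not given in the sources used here. Tables were joined by symbol, and control counts differed in 0 values between tables. Of the symbols, 55303 matched 1 gene of GENCODE M21 (GRCm38) for positions and 115 matched several.

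Hira libraries (n = 2) were compared with Ubn1 libraries (n = 2) without control libraries, using edgeR 4.0.16 in R 4.3.3 with limma 3.58.1: TMM scaling (factors 0.966 to 1.04), filterByExpr, the quasi-likelihood test and Benjamini-Hochberg adjustment over 18819 genes. A call needed an adjusted p under 0.05 and over 1.5-fold. The SE is the log2 difference over the root of the F statistic. CPM are on TMM-scaled sizes, and control CPM were put on the same scale. Totals were 20380337 to 31175762 counts. Lists are described by counts and medians, without a set test. Pseudocounts of 0.5 were used for positions of controls.

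Named genes were the HIRA list, the 12 highest and 12 lowest called genes at 5 CPM or more without overlapping groups and with an established symbol, the 5 smallest adjusted p in each direction, up to 4 called members of each list, and Pou5f1, Sox2, Nanog, Eomes, Cdx2 and Fgfr2. Further members, the listed cell type markers apart, were named after their values were seen. The comparison and the lists were chosen with earlier results of these data known. Alternatives were DESeq2 1.42.0 (Wald test, or its size factors in edgeR), no filter, at least 10 counts in every library, fits with the controls or all 8 libraries, a replicate block, adjusted p alone, glmTreat and each library left out. A block with crossed replicate numbers was added after seeing the data. Models were tested on simulated counts. Promoters came from RefSeq (GRCm38.p6). Other tools were Python 3.11.15, pandas 2.3.3, numpy 2.4.6 and matplotlib 3.10.9. Retrotransposon families were not analysed here, and a few genes that meet the naming rule are not reported here.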

Additional observations from a re-analysis of the deposited data

How the results depend on the processing

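No named gene that was called changed direction in the alternatives that refit its difference, which adjusted p alone and glmTreat do not. The counts of genes higher after Hira and higher after Ubn1 depletion were 1791 and 595, and they moved by over 1.5 times in 3 alternatives. DESeq2's Wald test gave 1073 for the first, a test against 1.5-fold itself (glmTreat) gave 547 and 83, and adjusted p alone gave 1917 for the second, with 2665 for the first. Without single libraries, where the lone library is assumed to vary like the other pair, the counts were 1284 to 1622 and 544 to 758. DESeq2's size factors, no filter, at least 10 counts in every library, and fits with the controls or all 8 libraries gave 1547 to 1850 and 541 to 670. Of the 149 called named genes besides the targets, 104 kept the call without each library, and 129 kept it in every other alternative run on them that gave a value.

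No source says that libraries with an equal replicate number were prepared together. Over 18819 genes, the deviations from the group mean of Hira and Ubn1 libraries with the same number had r = -0.107. A replicate block gave 1666 and 562 calls, with all 8 libraries 1693 and 633, and with the numbers crossed 1997 and 656. With 2 libraries a group, the groups share only a number, and low counts limit genes near the floor of 3 counts, which held 56 of the 1791 genes in both Ubn1 libraries.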

Other observations

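Several gene lists have not been described above. Their counts stand beside shares over all genes tested of 9.52% higher after Hira depletion and 3.16% higher after Ubn1 depletion. Of 46 germline and meiosis genes, 9 were higher after Hira depletion and 3 after Ubn1 depletion, with a median log2 difference of 0.06. Ddx4, an RNA helicase of germ cells, was at 31.7 and 23.2 CPM against 15.3 and 13.1 CPM, while Tex14, a protein of germ cell bridges, was at 43.7 and 42.7 CPM against 71.6 and 73.7 CPM. Of 31 clustered histone genes, 7 (22.6%) were higher after Hira depletion and none after Ubn1 depletion, with a median of 0.71. Hist1h4i was at 20.9 and 16.5 CPM against 8.24 and 8.86 CPM. The libraries were made with a poly(A) kit, so these values cover only the histone RNA that it recovers. The histone count was 3 without Hira replicate 2, without Ubn1 replicate 2 and with DESeq2. Of 23 primed epiblast and primitive streak genes, 6 were higher after Hira depletion and 4 after Ubn1 depletion, with Sox3 (1.52) and Lef1 (1.49) on one side and Lefty2 (-1.58) and Lefty1 (-0.94) on the other. With at least 10 counts in every library these were 2 and 4, with a median of -0.12 in place of 0.30. Of 21 primitive endoderm genes, 4 and 1 were called, and Gata4 (0.53) and Gata6 (0.81) did not pass the test. That count of 4 was 2 without Hira replicate 2, without Ubn1 replicate 1 and with DESeq2. Of 20 cell cycle inhibitors and G1 cyclins, 4 and 1 were called, among them the inhibitor Cdkn1b at 51.9 and 47.0 CPM against 31.1 and 25.2 CPM.

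Over all genes tested, 9.52% were higher after Hira depletion and 3.16% after Ubn1 depletion. Signalling lists had members called on both sides. Higher after Hira and after Ubn1 depletion were 4 (12.1%) and 3 (9.09%) of 33 FGF and ERK genes. For 31 Nodal and BMP genes these were 4 (12.9%) and 3 (9.68%), and for 26 Wnt target genes 6 (23.1%) and 2 (7.69%). The Hira shares of the FGF and ERK and the Nodal and BMP lists lay near that of all genes. Fos, an immediate early gene, was at 6.83 and 6.38 CPM against 1.96 and 3.06 CPM, and Sfrp2, a secreted Wnt inhibitor, at 18.5 and 17.6 CPM against 9.26 and 8.05 CPM. Of 27 muscle contraction genes, 5 and 3 were called, with the heart factor Tbx20 (2.14) higher after Hira depletion and the intermediate filament Des (-1.11) higher after Ubn1 depletion. Of 32 hypoxia-inducible factor targets, 3 and 1 were called, close to the shares of all genes tested. Of 9 blood and endothelial markers, 3 and 1 were called, with Tek (1.18), an endothelial receptor, at 43.1 and 43.7 CPM against 19.6 and 18.6 CPM. Small nucleolar and Cajal body RNAs had 4 of 86 and zinc finger genes numbered Zfp900 to Zfp999 had 1 of 61 higher after Ubn1 depletion, none after Hira depletion. Counts of the small RNAs likewise cover only what a poly(A) kit recovers. Without Hira replicate 1 the calls were 2 for muscle genes higher after Hira depletion, 2 for Nodal and BMP genes, 5 for germline genes higher after Ubn1 depletion and 0 for small nucleolar RNAs. Without Hira replicate 2 the hypoxia targets had 7 called higher after Hira depletion. Without Ubn1 replicate 1 the FGF and ERK genes had 1 called higher after Ubn1 depletion, and without Ubn1 replicate 2 the zinc finger genes had 6.

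The following families were chosen after their values were seen. Of 13 tested Rgs genes, which end G protein signals, 7 were higher after Hira depletion and none after Ubn1 depletion, Rgs20 among them at 7.79 and 8.31 CPM against 2.05 and 1.78 CPM. Of 14 tested Galnt genes, which start mucin-type glycosylation, 5 were higher after Hira depletion, Galnt7 among them at 40.4 and 39.8 CPM against 18.3 and 18.0 CPM. Keratins split, with 5 of 13 (Krt18, Krt8, Krt19, Krt5 and Krt7) higher after Hira depletion and 3 (Krt17, Krt42 and Krt14) higher after Ubn1 depletion. Krt7 (1.35) was not called without Hira replicate 1. Krt14 was not called without either Hira replicate and had no adjusted p with DESeq2, and it rested on 11 counts in each Ubn1 library against 3 and 0 in the Hira libraries.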
